A study of Mus musculus with 12 samples.

Results

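The genes described here are 2 Notch receptors and 7 transcription factors of blood and immune lineages: Notch1, Notch2, Zeb1, Tcf4, Maf, Pou2f2 and the Ikaros family members Ikzf1, Ikzf2 and Ikzf3. They were taken by name from the panel, and all 9 were found among its 545 immune genes. Of the 9, 8 passed the filter on low counts and were tested together with the rest of the 357 genes that passed it. The samples were microglia, sorted from the hippocampus of male Balbc mice at postnatal day 28. The BDS group (6 samples) had undergone brief daily separation: between postnatal days 1 and 21 the pups spent 15 min of each day away from their dam. The control group (6 samples) had the same sex, strain and age, and the labels do not describe how control litters were handled. Every sample came from a different litter. The values are NanoString barcode counts, obtained by hybridizing amplified cDNA to probes without sequencing.

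Notch receptors are cell surface proteins that are cut after binding a ligand on a neighbouring cell. The freed inner part enters the nucleus and works with the DNA-binding protein RBPJ to switch on target genes. Zeb1 is a zinc finger repressor that binds E-boxes, and Tcf4 is an E-protein needed for plasmacytoid dendritic cells. Maf is a bZIP factor of macrophages and helper T cells, and Pou2f2 (Oct-2) is an octamer-binding factor of B cells that myeloid cells also use. Ikzf1 (Ikaros), Ikzf2 (Helios) and Ikzf3 (Aiolos) are zinc finger proteins first described in lymphocytes.

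The promoters of the 2 receptors are shown beside that of Ikzf1, since the receptors had the lower mean in BDS and Ikzf1 had the same mean in both groups. Each window runs from 250 bases before to 50 bases after an annotated start, on the gene's own strand, from RefSeq (GRCm38.p6). Capitals mark the GC box GGGCGG or its reverse complement CCGCCC. The windows are chr2:26503773-26504072 (minus strand) for Notch1, chr3:98013288-98013587 (plus strand) for Notch2 and chr11:11685675-11685974 (plus strand) for the first of 2 Ikzf1 starts listed.
Notch1: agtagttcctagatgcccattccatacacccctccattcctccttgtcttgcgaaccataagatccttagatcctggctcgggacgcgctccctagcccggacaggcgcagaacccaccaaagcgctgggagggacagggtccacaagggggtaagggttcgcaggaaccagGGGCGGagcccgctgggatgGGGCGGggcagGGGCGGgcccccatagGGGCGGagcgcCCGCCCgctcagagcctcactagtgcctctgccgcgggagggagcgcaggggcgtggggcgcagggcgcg
Notch2: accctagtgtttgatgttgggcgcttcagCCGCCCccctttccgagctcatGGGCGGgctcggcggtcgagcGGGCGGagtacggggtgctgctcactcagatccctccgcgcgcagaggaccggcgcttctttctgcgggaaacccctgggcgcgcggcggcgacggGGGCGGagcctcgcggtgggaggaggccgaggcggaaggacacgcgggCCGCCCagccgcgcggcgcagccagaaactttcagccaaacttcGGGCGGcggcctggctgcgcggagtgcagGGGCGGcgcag
Ikzf1: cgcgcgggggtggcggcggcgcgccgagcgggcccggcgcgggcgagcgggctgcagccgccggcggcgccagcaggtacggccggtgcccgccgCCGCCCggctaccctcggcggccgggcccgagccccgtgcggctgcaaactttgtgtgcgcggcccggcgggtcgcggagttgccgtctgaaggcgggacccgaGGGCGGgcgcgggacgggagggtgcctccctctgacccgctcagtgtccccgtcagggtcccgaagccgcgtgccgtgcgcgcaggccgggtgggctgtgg
The Notch1 window holds 5 GC boxes, the Notch2 window 7 and the Ikzf1 window 2. A GC box was found in 35.7% of 32851 promoters of the same length, counted on both strands. Neither the RBPJ core TGGGAA (25.6% of promoters), nor the octamer ATGCAAAT (1.74%), nor the E-box CAGGTG (20.2%) was found in these 3 windows. The CpG count is 23 for Notch1, 41 for Notch2 and 52 for Ikzf1, against a median of 7 over the same 32851 promoters. The GC content is 68.3% for Notch1, 73.0% for Notch2 and 81.3% for Ikzf1, against a median of 52.7%. The window of the second Ikzf1 start holds 0 GC boxes and 2 CpG, at a GC content of 49.0%. That of Pou2f2, which also had the lower mean in BDS, holds 2 GC boxes and 13 CpG, at 64.0%. These matches describe the sequence and show no binding, and a link to the counts was not tested.

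Before the results, 3 libraries need naming. BDS 21, BDS 25 and BDS 55 had the lowest total counts of the endogenous genes (577135 to 727203, against 827591 to 1341132 in the other 9 samples). They also had the lowest housekeeping factors, the number by which a sample's counts are divided (0.590 to 0.827, against 0.847 to 1.42). Their count ratio of Rpl19, a ribosomal protein gene, to Polr2a, the large subunit of RNA polymerase II, was 0.465 to 0.790, against 0.113 to 0.267 in the other 9. Rpl19 and Polr2a were singled out in earlier work on these data because they differed most between the groups among the housekeeping genes. The members' fold changes are therefore also given without these 3 samples, whose part in the results was not tested. Defining microglial genes were abundant. Csf1r, the receptor that microglia need to survive, had 100911 ± 22134 scaled counts in BDS and 87685 ± 3993 in control samples (SD, n = 6 each), and Itgam, an integrin chain, had 37550 ± 5859 in BDS and 41231 ± 2999 in control samples. Of the 9 identity genes tested, Tgfbr2, a TGF-beta receptor chain, was at an unadjusted p under 0.05, with 15881 ± 2448 in BDS and 19662 ± 654 in control samples (log2 fold change -0.31 ± 0.09 SE, unadjusted p = 0.0054, adjusted p = 0.24 in edgeR), and -0.13 without the 3 libraries (unadjusted p = 0.027). Probes differ in efficiency, so the level of 1 gene is not set against that of another, and the sums over marker genes below weight each gene by its probe. Each sum runs over all genes of its list on the panel, those below the filter on low counts included.

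The comparison asked whether these genes differed between microglia of separated and control pups. No member passed the adjusted threshold of 0.05 in the edgeR quasi-likelihood test, and 0 of all 357 tested genes did (0%). At an unadjusted p under 0.05, 3 of the 8 tested members, Notch1, Zeb1 and Maf, were lower in BDS and 0 were higher. Over all tested genes 11.5% met that rule as lower (41 genes) and 0.84% as higher (3 genes). By edgeR's log2 fold changes, 7 of 8 members lay below 0 and 6 below the panel median. Without BDS 7, 6 of 8 members were lower by the unadjusted rule and 0 were higher, beside 24.6% of all genes lower and 2.24% higher, and 0 members were among the 1.12% of genes past the adjusted threshold. With DESeq2's own size factors 1 member was lower, beside 3.92% of genes lower and 3.64% higher. With DESeq2 and the housekeeping factors 4 were lower, Pou2f2 being added, beside 12% of genes. No member had all 6 BDS samples below every control, as 1.12% of genes did. The members' median was -0.28, and that of the 357 genes was -0.10, with 66.1% of genes below 0. Without BDS 21, BDS 25 and BDS 55 the order turned, with a members' median of -0.056 and a median of -0.089 over all tested genes. In bulk RNA, fewer cells of a type and less RNA per cell cannot be told apart.

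**Figure D1:**
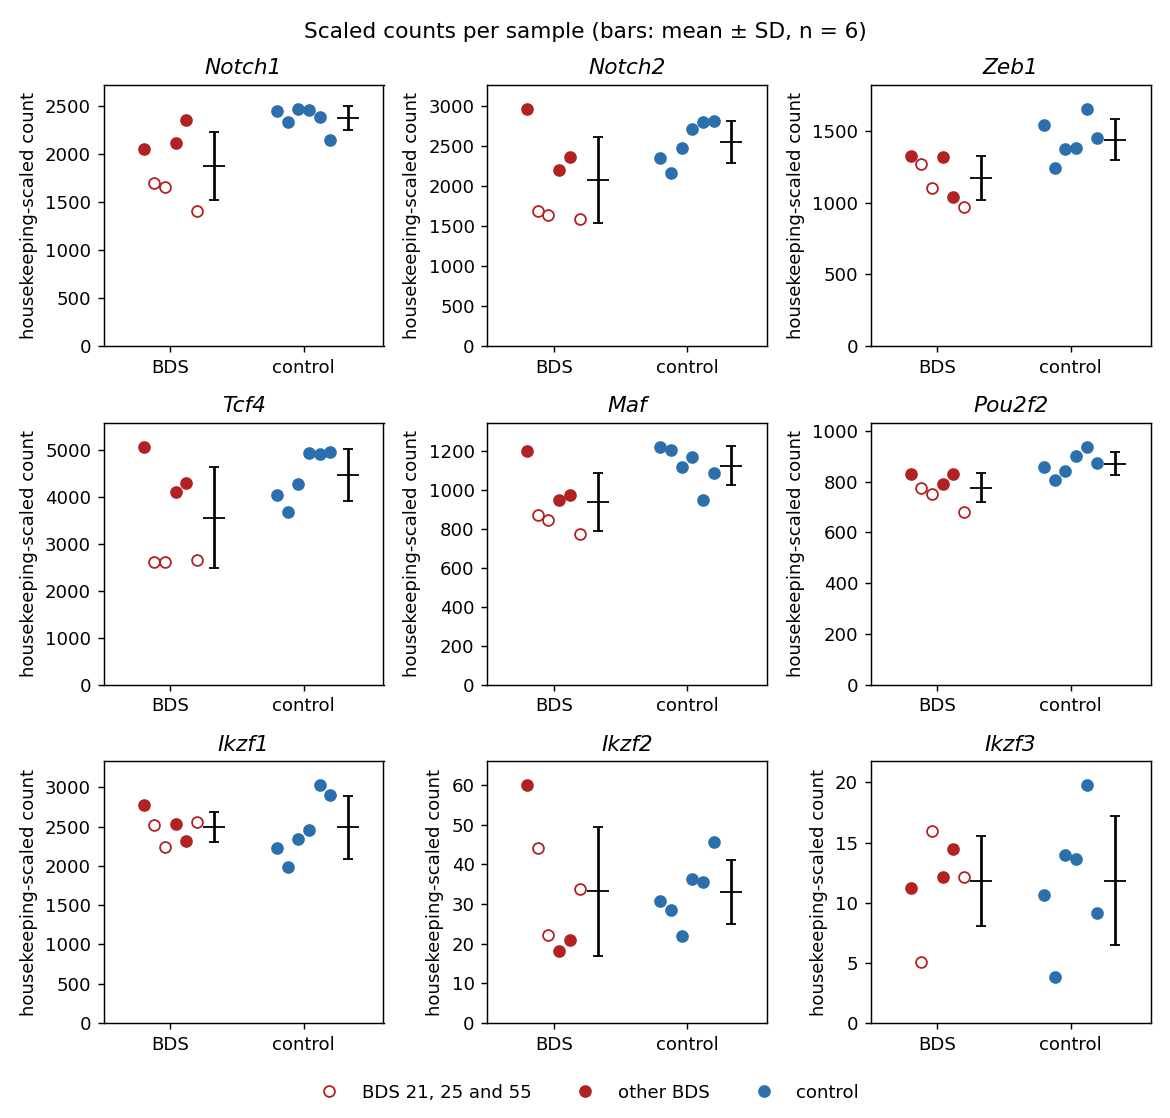
Housekeeping-scaled counts (y axis) of the 9 genes in each BDS and control sample, with the mean ± SD of 6 samples per group beside the points. Open circles are BDS 21, BDS 25 and BDS 55, which are the lowest of all 12 samples for Notch1, Notch2, Tcf4, Maf and Pou2f2, while Ikzf1 overlaps throughout.

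Notch1 was the member with the smallest p. It had 2051, 1698, 1657, 2117, 2356 and 1404 scaled counts in BDS 7, 21, 25, 35, 43 and 55, against 2447, 2333, 2472, 2458, 2391 and 2149 in control 5, 9, 13, 27, 44 and 54. All 6 BDS samples lay below the control mean and 5 of 6 lay below the lowest control, the exception being BDS 43. At least 5 BDS samples below every control were seen for 6.44% of the tested genes, and for 1 member. The mean was 1880 ± 353 in BDS and 2375 ± 122 in control samples (SD, n = 6 each), a log2 fold change of -0.34 ± 0.11 (SE) with an unadjusted p = 0.010 and an adjusted p = 0.25 in edgeR. The coefficient of variation was 18.7% in BDS and 5.14% in control samples. The 3 named libraries left out, the change was -0.13 ± 0.08 (SE; adjusted p = 0.90).

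Notch2, the other Notch receptor on the panel, had 2965, 1694, 1644, 2205, 2366 and 1584 scaled counts in BDS 7, 21, 25, 35, 43 and 55. It had 2347, 2166, 2471, 2707, 2793 and 2814 in control 5, 9, 13, 27, 44 and 54. The groups overlapped widely: 3 BDS samples lay below every control and BDS 7 lay above all controls. The log2 fold change was -0.30 ± 0.15 (SE; unadjusted p = 0.063, adjusted p = 0.39). Without BDS 21, BDS 25 and BDS 55 it was -0.02 ± 0.12 (SE; adjusted p = 0.98), with means of 2512 ± 400 in the remaining BDS samples (SD, n = 3) and 2550 ± 264 in control samples (SD, n = 6). Notch ligands, RBPJ and Notch target genes could not be followed, because of 32 genes listed for the pathway the panel held only these 2 receptors.

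The ratio of Notch1 to Notch2 counts within a sample does not depend on the scaling. It was 0.692, 1.00, 1.01, 0.960, 0.996 and 0.886 in BDS 7, 21, 25, 35, 43 and 55, against 1.04, 1.08, 1.00, 0.908, 0.856 and 0.764 in control 5, 9, 13, 27, 44 and 54. The groups overlapped over most of their range. The mean log2 ratio was -0.13 ± 0.21 in BDS and -0.10 ± 0.19 in control samples (SD, n = 6 each), a difference of -0.03 (exact permutation test, two-sided p = 0.80; adjusted p = 0.80 over 3 ratios). The p does not show that the 2 receptors moved alike.

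Zeb1 had 1323, 1270, 1103, 1317, 1041 and 966 scaled counts in BDS 7, 21, 25, 35, 43 and 55, against 1540, 1243, 1369, 1377, 1652 and 1446 in control 5, 9, 13, 27, 44 and 54. All 6 BDS samples lay below the control mean, as for 12.9% of the tested genes, and all 6 lay below every control but control 9. The mean was 1170 ± 154 in BDS and 1438 ± 143 in control samples (SD, n = 6 each), a log2 fold change of -0.30 ± 0.10 (SE) with an unadjusted p = 0.012 and an adjusted p = 0.25 in edgeR. Of the members, Zeb1 kept the largest difference without BDS 21, BDS 25 and BDS 55, at -0.23 ± 0.11 (SE; unadjusted p = 0.071, adjusted p = 0.90). In that comparison 5.60% of genes were lower at an unadjusted p under 0.05, and 0 members were. With TMM scaling, which sets the level by the tested genes themselves, Zeb1 was the only member at an unadjusted p under 0.05 (log2 fold change -0.20, unadjusted p = 0.035, adjusted p = 0.52), where 3.92% of genes were lower and 5.04% higher by that rule.

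Tcf4 split the BDS group. It had 5071, 2612, 2622, 4111, 4311 and 2660 scaled counts in BDS 7, 21, 25, 35, 43 and 55, against 4041, 3682, 4283, 4943, 4913 and 4963 in control 5, 9, 13, 27, 44 and 54. The 3 samples BDS 21, BDS 25 and BDS 55 lay below every control, BDS 7 lay above all of them, and BDS 35 and BDS 43 lay within their range. The log2 fold change was -0.33 ± 0.17 (SE; unadjusted p = 0.073, adjusted p = 0.40), and 0.0086 ± 0.11 (SE; adjusted p = 0.998) without those 3 samples. The within-sample ratio of Zeb1 to Tcf4 counts ran from 0.241 to 0.486 in BDS and from 0.279 to 0.381 in control samples. Its mean log2 value was -1.56 ± 0.39 in BDS and -1.63 ± 0.16 in control samples (SD, n = 6 each; exact permutation test, two-sided p = 0.70, adjusted p = 0.80 over 3 ratios). Without the 3 samples the difference was -0.24 (exact permutation test, adjusted p = 0.36).

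**Figure D2:**
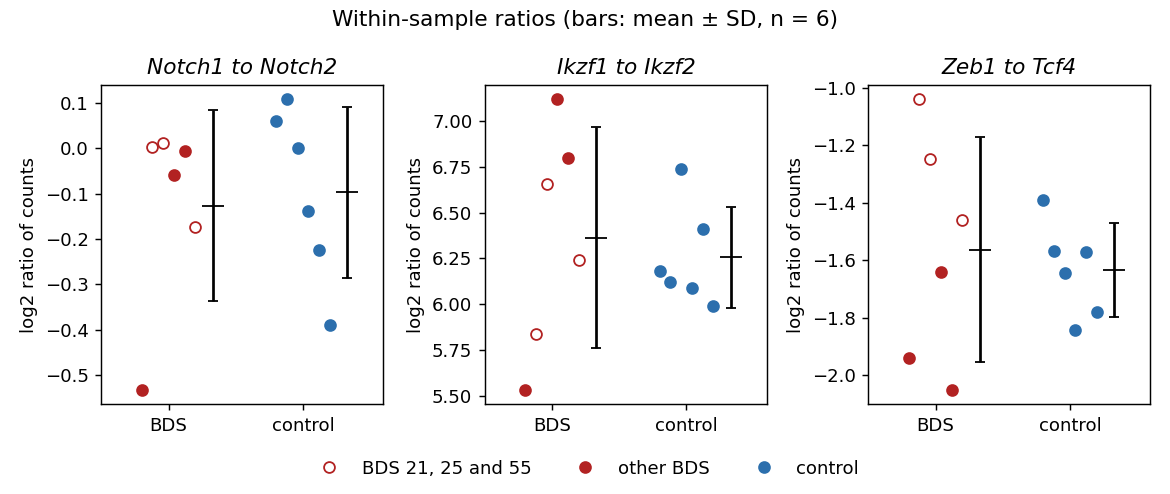
Log2 ratios of counts within each sample (y axis) for 3 pairs of members, with the mean ± SD of 6 samples in BDS and in control. The groups overlap in every panel, and the open circles (BDS 21, BDS 25 and BDS 55) are the highest BDS points for Zeb1 to Tcf4.

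Maf had 1203, 875, 848, 949, 975 and 774 scaled counts in BDS 7, 21, 25, 35, 43 and 55, against 1223, 1206, 1119, 1170, 950 and 1087 in control 5, 9, 13, 27, 44 and 54. BDS 7 lay among the highest controls, control 44 lay beside BDS 35, and 4 BDS samples lay below the lowest control. That count depends on the scaling, since in the values scaled by the authors BDS 35 was at 1022 and control 44 at 966. The mean was 937 ± 149 in BDS and 1126 ± 100 in control samples (SD, n = 6 each). The log2 fold change was -0.26 ± 0.11 (SE; unadjusted p = 0.029, adjusted p = 0.36), and -0.11 ± 0.11 (SE; adjusted p = 0.96) without BDS 21, BDS 25 and BDS 55.

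Pou2f2 varied least among the members in control samples after Notch1, with a coefficient of variation of 7.29% in BDS and 5.22% in control samples. It had 830, 777, 753, 790, 832 and 680 scaled counts in BDS 7, 21, 25, 35, 43 and 55, against 858, 808, 843, 903, 937 and 874 in control 5, 9, 13, 27, 44 and 54. All 6 BDS samples lay below the control mean and 4 lay below the lowest control, control 9. The log2 fold change was -0.16 ± 0.08 (SE; unadjusted p = 0.058, adjusted p = 0.38), and -0.09 ± 0.08 (SE; adjusted p = 0.96) without BDS 21, BDS 25 and BDS 55.

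The Ikaros family gave no difference that the data could show. Ikzf1 had 2779, 2519, 2244, 2533, 2323 and 2561 scaled counts in BDS 7, 21, 25, 35, 43 and 55, against 2227, 1992, 2345, 2462, 3028 and 2904 in control 5, 9, 13, 27, 44 and 54. All 6 BDS samples lay within the range of the controls. The mean was 2493 ± 189 in BDS and 2493 ± 400 in control samples (SD, n = 6 each), a log2 fold change of 0.00018 ± 0.10 (SE; adjusted p = 0.999). Without BDS 21, BDS 25 and BDS 55 it was 0.03 ± 0.13 (SE; adjusted p = 0.98).

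Ikzf2 was near the detection limit, with raw counts of 14 to 65 over the 12 samples and background thresholds of 15.3 to 21.8. It was above background in 10 of 12 samples, and BDS 25 and BDS 35 were the exceptions. Scaled counts were 60.0, 44.1, 22.3, 18.2, 20.9 and 33.9 in BDS 7, 21, 25, 35, 43 and 55, against 30.7, 28.6, 22.0, 36.2, 35.6 and 45.7 in control 5, 9, 13, 27, 44 and 54. The log2 fold change was -0.01 ± 0.28 (SE; adjusted p = 0.99), and -0.02 ± 0.37 (SE; adjusted p = 0.998) without BDS 21, BDS 25 and BDS 55. The log2 ratio of Ikzf1 to Ikzf2 counts was 6.36 ± 0.60 in BDS and 6.25 ± 0.28 in control samples (SD, n = 6 each; exact permutation test, two-sided p = 0.70, adjusted p = 0.80 over 3 ratios). Ikzf3 was above background in 0 of 12 samples, with raw counts of 3 to 18 in BDS and 4 to 20 in control samples, and was not tested.

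**Figure D3:**
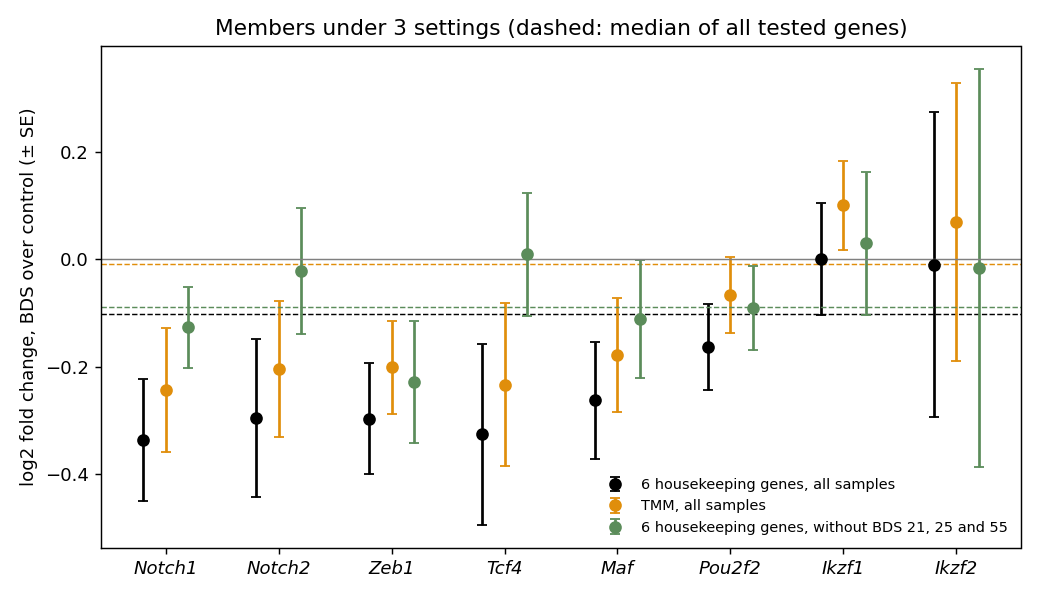
Log2 fold change, BDS over control, with its SE (y axis) for the 8 tested members under 3 settings. Dashed lines are the medians of the 357 tested genes (-0.10, -0.01 and -0.09 in the order of the legend), and Tcf4 and Notch2 lie near 0 without BDS 21, BDS 25 and BDS 55 while Zeb1 is at -0.23.

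Tcf4 and Notch2 followed the Rpl19 to Polr2a ratio of the sample also among the 9 samples that remain without BDS 21, BDS 25 and BDS 55, a relation examined after the values had been seen. The 12 samples fall into separate clusters on that ratio, so the relation was computed within the 9 alone. Only the 8 tested members were examined, so the share of all 357 tested genes with such a relation is not known. For Tcf4, Pearson's r was -0.95 (exact permutation p = 6.4e-04, adjusted p = 0.0028 over 8 members; n = 9) and Spearman's rho -0.90 (exact permutation p = 0.0020, adjusted p = 0.012). For Notch2, r was -0.94 (exact permutation p = 6.9e-04, adjusted p = 0.0028; n = 9) and rho -0.88 (exact permutation p = 0.0031, adjusted p = 0.012). Without the 2 samples farthest from the median ratio, BDS 35 and control 9, r was -0.93 for Tcf4 and -0.89 for Notch2 (exact permutation p = 0.0079 and 0.013, adjusted p = 0.051 for each; n = 7). Within the 6 control samples alone, r was -0.97 for Tcf4 and -0.94 for Notch2 (exact permutation p = 0.0028 and 0.0069, adjusted p = 0.022 and 0.028). With TMM scaling r was -0.76 for Tcf4 and -0.86 for Notch2 (exact permutation, adjusted p = 0.073 and 0.025; n = 9).

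The other 6 members did not pass the adjusted threshold in that relation. For Notch1 r was 0.08 (exact permutation p = 0.84, adjusted p = 0.84; n = 9), and 0.62 with TMM scaling (exact permutation p = 0.079, adjusted p = 0.16) and 0.45 without the 2 farthest samples (exact permutation p = 0.31, adjusted p = 0.48). For Zeb1 it was -0.38 (exact permutation p = 0.33, adjusted p = 0.44; n = 9). For Maf it was -0.13 (exact permutation p = 0.74, adjusted p = 0.84; n = 9). Ikzf1, Ikzf2 and Pou2f2 had r of -0.70, -0.72 and -0.68 (exact permutation, adjusted p = 0.071, 0.068 and 0.071; n = 9). What sets the ratio was not tested, and Polr2a was read from the same hybridization as the members.

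**Figure D4:**
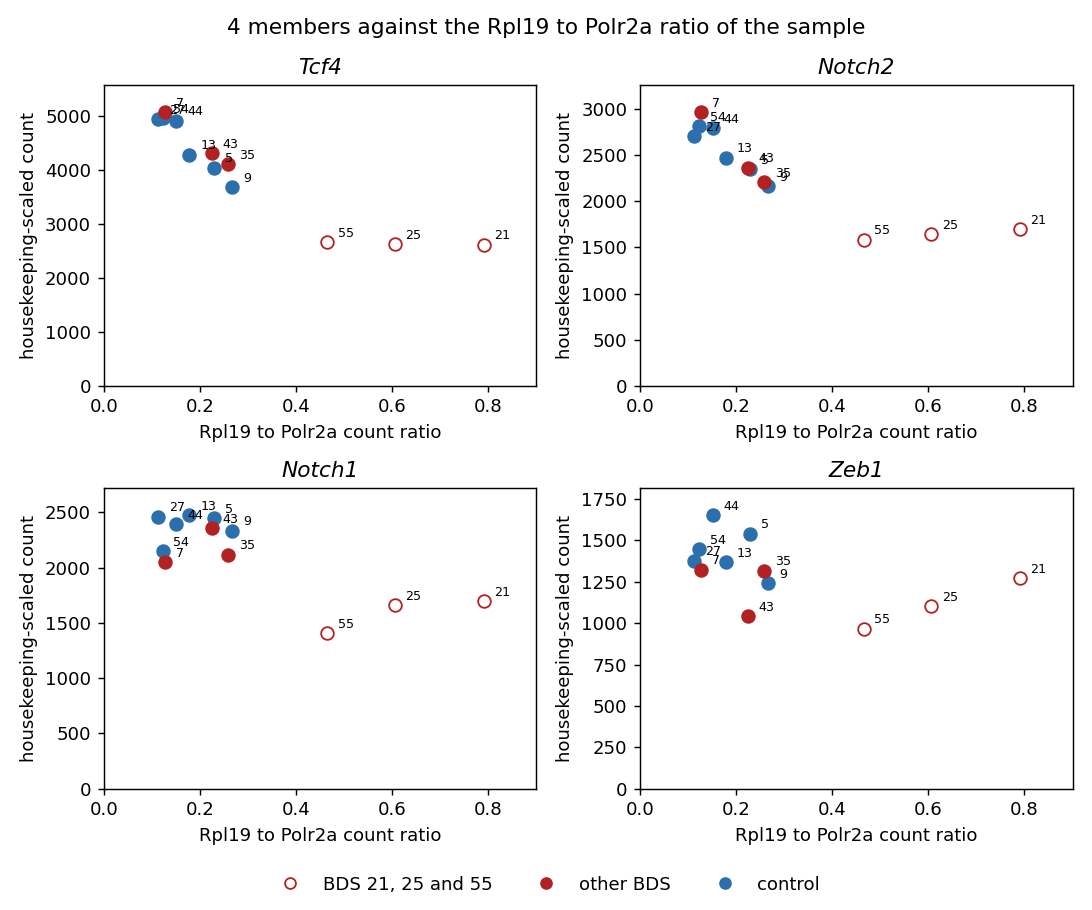
Housekeeping-scaled counts (y axis) of 4 members against the Rpl19 to Polr2a count ratio of the sample (x axis), numbered by sample, with BDS in red, BDS 21, BDS 25 and BDS 55 as open circles, and controls in blue. Tcf4 and Notch2 decline together in BDS and control samples up to a ratio of 0.267, and Notch1 and Zeb1 scatter there.

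Members were also set beside the tested genes most like them, by Pearson's r of log2 scaled counts over the 12 samples after the group means were removed. These values describe the samples, which include the 3 named libraries. Notch2 and Tcf4 were more like each other (r = 0.98 over 12 samples, 0.97 over 9) than either was like any gene outside the set. The closest such genes were Irak4 (r = 0.97), a kinase of Toll-like receptor signalling, and Itga6 (0.95), an integrin chain, for Notch2, and Itga6 (0.97) and Ctsc (0.96), a lysosomal protease, for Tcf4. For Notch1 they were Npc1 (0.93), a cholesterol transporter, and Nfkb1 (0.93), an NF-kB subunit, and over 9 samples r was 0.67 and 0.75. For Notch1 and Notch2 themselves r was 0.69 over 12 samples and -0.38 over 9. For Pou2f2 the closest were Pml (0.97) and Tnfaip3 (0.90), for Maf Fcgr1 (0.91) and Tlr4 (0.84), and for Zeb1 Tnfsf13b (0.89) and Icos (0.78). For Ikzf1 they were Itgb2 (0.91) and Il4ra (0.88), and for Ikzf2 Jak1 (0.89) and Hif1a (0.88).

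Other transcription factors of blood lineages served as a comparison. Of 57 listed, 25 were on the panel and 17 were tested. None passed the adjusted threshold, 0 were at an unadjusted p under 0.05 in either direction (edgeR), and 9 of 17 had log2 fold changes below 0, with a median of -0.04 against -0.10 for all tested genes. Runx1, a factor of definitive blood formation and of microglia, had 3181 ± 819 scaled counts in BDS and 3935 ± 136 in control samples (SD, n = 6 each; log2 fold change -0.31 ± 0.15 SE, adjusted p = 0.38), and -0.03 without BDS 21, BDS 25 and BDS 55. Xbp1, a factor of the unfolded protein response, had 3237 ± 237 in BDS and 3317 ± 417 in control samples, and Irf8, a factor required for microglia, had 2103 ± 392 in BDS and 2168 ± 330 in control samples. Gata3, Eomes, Pax5, Lef1 and Ikzf4, factors of T, NK and B cells, were above background in 0 of 12 samples. Other factors of the list known from lymphocytes were detected. Tcf7 (raw counts 51 to 193), Batf (28 to 81) and Ets1 (19 to 69) were above background in 12 samples. Foxp3 (14 to 36) was above it in 9 and Tbx21 (13 to 26) in 7.

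Several members are also known from other cells that a sort could hold, so the markers of those cells are given, and their part in the members' values was not tested. Of 13 B cell markers on the panel 7 were tested, and Cd22, Cr2 and Pax5 were above background in 0 of 12 samples. The summed B cell marker level was 4118 to 5838 in BDS and 4230 to 4878 in control samples, and most of those counts came from the probe for Blnk, which myeloid cells also express (3574 ± 384 in BDS and 3178 ± 160 in control samples). Tnfrsf13b was the B cell marker at an unadjusted p under 0.05 (0.59 ± 0.23 on the log2 scale, SE; adjusted p = 0.29 in edgeR), and 0.18 without BDS 21, BDS 25 and BDS 55. Its raw counts were 22 to 44, near the background thresholds of 15.3 to 21.8. Of 17 T cell markers 6 were tested, and 8, among them Cd3d, Cd3e, Cd247 and Zap70, were above background in 0 samples. The T cell sum was 4610 to 5811 in BDS and 5150 to 6227 in control samples, and most of those counts came from the Il7r probe. Lck, a T cell kinase, had 24.5 ± 4.6 in BDS and 35.4 ± 6.7 in control samples (log2 fold change -0.53 ± 0.18 SE, unadjusted p = 0.0093, adjusted p = 0.25 in edgeR), and -0.58 without BDS 21, BDS 25 and BDS 55 (unadjusted p = 0.018). Cd5, of the same list, was at 0.24 ± 0.21 (SE; adjusted p = 0.60).

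The plasmacytoid dendritic cell list, the cell type for which Tcf4 is known, had 4 genes on the panel, all tested and all with log2 fold changes below the panel median. Its sum was 3456 to 5436 in BDS and 5373 to 6060 in control samples, and most of those counts came from the probe for Tlr9, which microglia also express (4100 ± 797 in BDS and 5465 ± 233 in control samples). The log2 fold change of Tlr9 was -0.41 ± 0.11 (SE; unadjusted p = 0.0023, adjusted p = 0.17 in edgeR), and -0.19 without BDS 21, BDS 25 and BDS 55 (unadjusted p = 0.017). Of 4 endothelial markers, 3 were tested. The sum over the 4 was 982 to 1354 in BDS and 1002 to 1411 in control samples. Most of those counts came from the Pecam1 probe (942 ± 130 in BDS and 1046 ± 145 in control samples). Cdh5, the endothelial cadherin, had 120 ± 18 in BDS and 149 ± 24 in control samples (log2 fold change -0.32 ± 0.14 SE, unadjusted p = 0.040, adjusted p = 0.38 in edgeR), and -0.16 without BDS 21, BDS 25 and BDS 55 (unadjusted p = 0.35). The sums were 271 to 368 in BDS and 291 to 555 in control samples for NK cell markers, and 3194 to 3806 in BDS and 3226 to 3849 in control samples for neutrophil markers. Most of the neutrophil counts came from the Csf3r probe (3423 ± 229 in BDS and 3401 ± 224 in control samples). S100a8 was at 17.3 ± 8.7 in BDS and 17.1 ± 6.5 in control samples, and Cxcr2 and Camp were above background in 0 samples. For blood monocyte and border macrophage markers the sums were 300 to 508 in BDS and 332 to 542 in control samples, and Cd163, Marco and Msr1 of that list were above background in 0 samples. Ccr2, the monocyte chemokine receptor, had 301 ± 75 in BDS and 389 ± 79 in control samples (log2 fold change -0.36 ± 0.17 SE, unadjusted p = 0.049, adjusted p = 0.38 in edgeR), and -0.16 without BDS 21, BDS 25 and BDS 55 (unadjusted p = 0.44). Cd36, the other gene of that list above the filter, was at 0.20 ± 0.17 (SE; adjusted p = 0.59). For astrocyte, neuron and oligodendrocyte markers the sums were 4242 to 6720 in BDS and 5992 to 7388 in control samples, and most of those counts came from the probe for App, which many cells express. App had a log2 fold change of -0.25 ± 0.11 (SE; unadjusted p = 0.038, adjusted p = 0.38 in edgeR), and -0.09 without BDS 21, BDS 25 and BDS 55 (unadjusted p = 0.38). Of the 3 genes tested in that list, 2 lay below 0.

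The authors' deposited table gives an unadjusted p under 0.05 for 4 of the 9 members, all lower in BDS, where 9.07% of the 364 genes it lists as present are lower by that rule. These are Zeb1 (fold 0.82, p = 0.0126), Notch1 (fold 0.80, p = 0.0156), Pou2f2 (fold 0.90, p = 0.0168) and Maf (fold 0.84, p = 0.0382) in the authors' deposited table. That table counts Ikzf3 above background in 8% of samples and Ikzf2 in 100%.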

How the data were processed

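The labels describe microglia isolated by Percoll gradient and sorting, with 2 ng of RNA converted to cDNA, amplified in 5 PCR rounds and hybridized to a NanoString mouse immune panel. The deposited raw table holds whole-number counts per probe (573 probes), not normalized. The second deposited table holds values that the authors scaled to positive controls and housekeeping genes, rounded and treated here as a score, with the authors' fold (a ratio of group means), the percent of samples above background and an unadjusted p-value (a t-test), per the file headers. The deposited scaling matches 5 housekeeping genes, Alas1, Gapdh, Oaz1, Polr1b and Tbp, to within 0.00053%, and 6 with Sdha added to within 1.65%. Counting software: not given in the sources used here.

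Each sample was scaled by its geometric mean over 6 housekeeping genes (the series text names them), set relative to the average sample. A gene was kept when at least 5 of 12 samples (40%) lay over 2 SD above the mean of their 8 negative probes. BDS and control were compared over all 357 kept genes with edgeR 4.0.16 (quasi-likelihood, R 4.3.3, no covariates, Benjamini-Hochberg, threshold 0.05). The test was also run on counts simulated with the same housekeeping factors, which cannot show an error of the scaling. Alternatives used TMM, other housekeeping sets, DESeq2 1.42.0, limma 3.58.1, other filters and samples left out. Ratios were compared by exact permutation tests. The replicate numbers of BDS and control are not shared, so no samples were paired. The members and lists were chosen with earlier results of these data known. By rule the text names all members, the 2 tested genes most like each, and of each list the genes with the highest counts or an unadjusted p under 0.05, given where they bear on a member.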

Additional observations from a re-analysis of the deposited data

How the results depend on the processing

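No member passed the adjusted threshold under any of the 25 alternatives run (24 for Ikzf2, which was not above background in all samples). No paired analysis was possible because the groups share no replicate number. Notch1, Zeb1, Maf and Pou2f2 kept log2 fold changes below 0 in all of them. The lowest adjusted p-values were 0.052 for Maf, 0.060 for Notch2 and 0.094 for Tcf4 (all without BDS 7), 0.073 for Zeb1 and 0.085 for Notch1, and the highest for these 5 lay at 0.98 to 0.998. The count of members at an unadjusted p under 0.05 and lower in BDS was 3; it was 1 with TMM scaling and 1 with DESeq2's own size factors, 0 without BDS 21, BDS 25 and BDS 55 with either scaling, and 2 to 6 with 1 sample left out (6 without BDS 7, 5 without BDS 43). The genes lower by that rule numbered 41, and 14 with TMM, 14 with DESeq2's own size factors, 20 without the 3 samples, 8 without them and with TMM, and 22 to 88 with 1 sample left out (22 without BDS 55, 23 without BDS 25, 88 without BDS 7). The genes higher numbered 3, and 18 with TMM, 5 with 5 housekeeping genes, 13 with DESeq2's own size factors, 7 and 5 in limma with pseudocounts of 1 and 10, 8 on the deposited values, 1 with background subtracted, 12 with no filter, 0 without the 3 samples, 1 without them and with TMM, and 2 to 10 with 1 sample left out. The genes past the adjusted threshold numbered 0 to 4 with 1 sample left out, 4 without BDS 7. Ikzf1 lay at -0.057 to 0.063 with 1 sample left out, and Ikzf2 at -0.30 to 0.12. Ikzf2 was at 0.069 with TMM, 0.068 with DESeq2's own size factors, 0.0025 with 5 housekeeping genes and 0.038 without the 3 samples and with TMM, and it moved farthest with background subtracted, to -0.42 (limma, adjusted p = 0.64). Without the 3 samples and with TMM, Notch2 was at 0.048 and Tcf4 at 0.082, and Tcf4 was at 0.0086 without the 3 samples alone. With 1 sample left out, the difference in log2 ratio was -0.087 to 0.052 for Notch1 to Notch2, -0.043 to 0.27 for Ikzf1 to Ikzf2 (0.43 with background subtracted, exact permutation, adjusted p = 0.80) and -0.035 to 0.17 for Zeb1 to Tcf4, and the last was -0.24 without the 3 samples (exact permutation, adjusted p = 0.36). Against the Rpl19 to Polr2a ratio, r turned to 0.0077, 0.33 and 0.40 with TMM for Zeb1, Maf and Pou2f2, and to 0.53 in controls for Maf (exact permutation, no adjusted p under 0.05). The removal of the 3 samples with TMM and the settings of r were chosen after seeing the data. The cause of these changes was not tested. Ikzf2 and Ikzf3 had raw counts near the background thresholds.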
